A study of Mus musculus with 2 samples.

Results

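The Id genes (Id1, Id2, Id3 and Id4) were examined in mouse embryonic fibroblasts before and after 1 h of serum. Cells with and without the mRNA processing factor THOC5 were compared. By the methods of the study, the cells were starved of serum before stimulation, so unstimulated cells are serum-starved cells. All probes that the array files name as one of these 4 genes were taken, and each gene had 1 probe, printed as 1 spot per array, so the members are 4 of 28312 genes with a symbol. The cells were immortalized MEF of the strain C57BL/6 x B6:129 Ola, genotype Rosa26ERT2 Cre: THOC5 (flox/flox). In these cells both copies of the gene are floxed, and a tamoxifen-dependent Cre expressed from the ubiquitous Rosa26 locus removes it. The labels call the control cells wildtype and the others a THOC5 knockdown, although both are of this one floxed line. Control cells had no tamoxifen and carry the same floxed alleles and the same Cre, and THOC5-depleted cells had 2 d of tamoxifen, so that tamoxifen itself and the loss of THOC5 cannot be told apart. There was 1 dual-color array per condition, on which Cy3 carried the unstimulated cells and Cy5 the cells after 1 h of FCS (fetal calf serum), without exchange of the dyes. No value therefore has a replicate check, and no test was made between conditions. Whether the 4 RNA samples came from a single clone of cells is not given in the sources used here.

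Id proteins (inhibitors of DNA binding) have a helix-loop-helix domain but lack the basic region that contacts DNA. They bind the ubiquitous E proteins (Tcf3, Tcf4 and Tcf12) and keep them from pairing with tissue-specific basic helix-loop-helix (bHLH) factors such as MyoD, so that differentiation genes stay off while cells proliferate. Their genes are known both as immediate early genes of the serum response in fibroblasts and as direct targets of BMP signalling, in which ligands bind serine/threonine kinase receptors that phosphorylate Smad1, Smad5 and Smad9. THOC5 is a subunit of the THO complex, which couples transcription to mRNA processing and export.

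Because each Id value rests on a single probe, the beginning or end of each 60-base probe is shown, with its place on mm9. The probe of Id1 lies at chr2:152563083-152563142 on the + strand, that of Id2 at chr12:25778904-25778963 on the - strand, that of Id3 at chr4:135700075-135700249 on the + strand and that of Id4 at chr13:48358668-48358727 on the + strand. The interval of the Id3 probe is 115 bases longer than the probe, so that its parts match the genome on both sides of a gap. The lines below give bases 31 to 60 of the Id1 probe and bases 1 to 30 of the other 3, and capitals mark a polyadenylation hexamer.
Id1: ttttttgttgttATTAAAcaaacactttag
Id2: tgagtgaaccttgtggactctttaattaga
Id3: tccgcatctcccgatccagacagctgagct
Id4: tgctaagtagaagagcaatcgtgaatccaa
The hexamer ATTAAA, a common variant of the polyadenylation signal AATAAA, starts at base 43 of the Id1 probe, with 12 bases after it. Neither hexamer was present in the full probes of Id2, Id3 and Id4, and 16.7% of 39429 probes held at least 1 of them (ATTAAA 4.56%, AATAAA 12.6%, read on the printed strand). The probes had a GC content of 28.3% (Id1), 35.0% (Id2), 55.0% (Id3) and 43.3% (Id4), against a median of 41.7% over all probes. None of the 4 probes reports whether an RNA was cleaved or exported, since each only hybridizes to a stretch of its transcript.

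The Thoc5 probe was 7.08-fold lower in unstimulated and 5.38-fold lower in stimulated THOC5-depleted cells than in control cells. All 10 fibroblast markers (Col1a1, Vim, Pdgfra and others) were well above background in all 4 channels, with a summed signal between 347300 and 470600. Markers of other cell types were also measured. Well above background in all 4 channels were 3 of 5 epithelial (Krt8, Krt18 and Krt14), 3 of 4 endothelial (Pecam1, Cdh5 and Kdr), 2 of 5 leukocyte, 1 of 4 skeletal muscle (Myod1) and 2 of 4 neural markers (Nes and Tubb3). Their summed signals were between 145 and 235 (epithelial), 886.5 and 1136 (endothelial), 620.2 and 852 (leukocyte), 53.0 and 69.1 (muscle) and 8207 and 12480 (neural). Cdh1 (epithelial), Myog (skeletal muscle), Tek (endothelial), Sox2 and Gfap (neural) were not well above background in any channel. The part of such cells in the results was not tested. Between 62.1% and 64.4% of 43020 spots were well above background, and none was saturated. The median SD of the log2 ratio between repeated spots of one probe was 0.029 for control (271 probes) and 0.031 for THOC5-depleted cells (269 probes), which covers only the error within an array. Levels are sums over all cells of a culture, so fewer cells that express a gene and less RNA per cell cannot be told apart.

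All 4 Id genes had higher signals after serum in control cells. Id1 had the largest serum ratio (Cy5 over Cy3 processed signal), with 2259 in unstimulated and 62645 in stimulated cells, a ratio of 27.7. Id3 had 1649 and 13162, a ratio of 7.98. Both are regulators of proliferation and vascular development that are often expressed together. Id4, which is best known from neural and germline stem cells, had 102 and 426, a ratio of 4.19. Id2, which is required for innate lymphoid and natural killer cells, had 579 and 2288, a ratio of 3.95. The signals of all 4 genes were well above background in all 4 channels, so no ratio is a bound. By the filters of the methods, which ask for a Cy5 signal above 200 and for more than 4 as the rounded ratio, and with a gene symbol in place of the annotation filter, Id1, Id3 and Id4 counted as serum-induced (3 of 4 genes, against 0.328% of all genes, 93 of 28312). Id2 lay just outside, since its ratio rounds to the limit itself. With a rounded ratio of 4 or more, a reading of the limit added after seeing the data, all 4 Id genes passed (background 0.357%). By a ratio of 2 or more, all 4 were called (background 2.64%). Among the 17232 genes with all channels well above background, the ratio of Id1 ranked 6, that of Id3 39, that of Id4 108 and that of Id2 121. The median ratio over those genes was 0.984.

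In THOC5-depleted cells, each Id gene still had a higher signal after serum, but by a smaller factor. Id1 had 3748 in unstimulated and 22614 in stimulated cells, a ratio of 6.03. Id3 had 1509 and 5080.0, a ratio of 3.37. The ratio of Id4 was 1.77, from 129 and 228. That of Id2 was 1.502, from 1145 and 1721. Id1 alone passed the filters (1 of 4, against 0.0989% of all genes, 28 of 28312), and Id1 and Id3 had a ratio of 2 or more (background 0.942%). The order of the 4 ratios (Id1, Id3, Id4, Id2) was the same on both arrays, but under normexp and loess Id2 lay above Id4 in control cells (4.04 and 3.35) and below it without THOC5 (1.55 and 1.63).

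The fold reduction, the serum ratio of control cells over that of THOC5-depleted cells, was 4.60 for Id1, 2.63 for Id2, 2.37 for Id3 and 2.36 for Id4. On the log2 scale these are 2.20 ± 0.027, 1.40 ± 0.035, 1.25 ± 0.027 and 1.24 ± 0.069 (SD expected from repeated spots of like brightness). Each is many times the spread between spots, but the spread between cultures is unknown. All 4 genes exceeded a reduction of 2, against 1.16% of genes with all channels well above background (200 of 17232) and 73.1% of the 93 genes past the filters in control cells (68 genes). The 93 genes were chosen by a high ratio in control cells, which is the numerator of the reduction, so their share is a description and is raised by that choice. The value depends on how the spread of the 2 arrays is treated. The interquartile range of the log2 ratios was 0.388 in control and 0.272 in THOC5-depleted cells. When the log2 ratios of each array were divided by their own spread and put on a common one, the reductions were 1.90 (Id1), 1.95 (Id2), 1.34 (Id3) and 1.68 (Id4), none of them above 2.

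**Figure D1:**
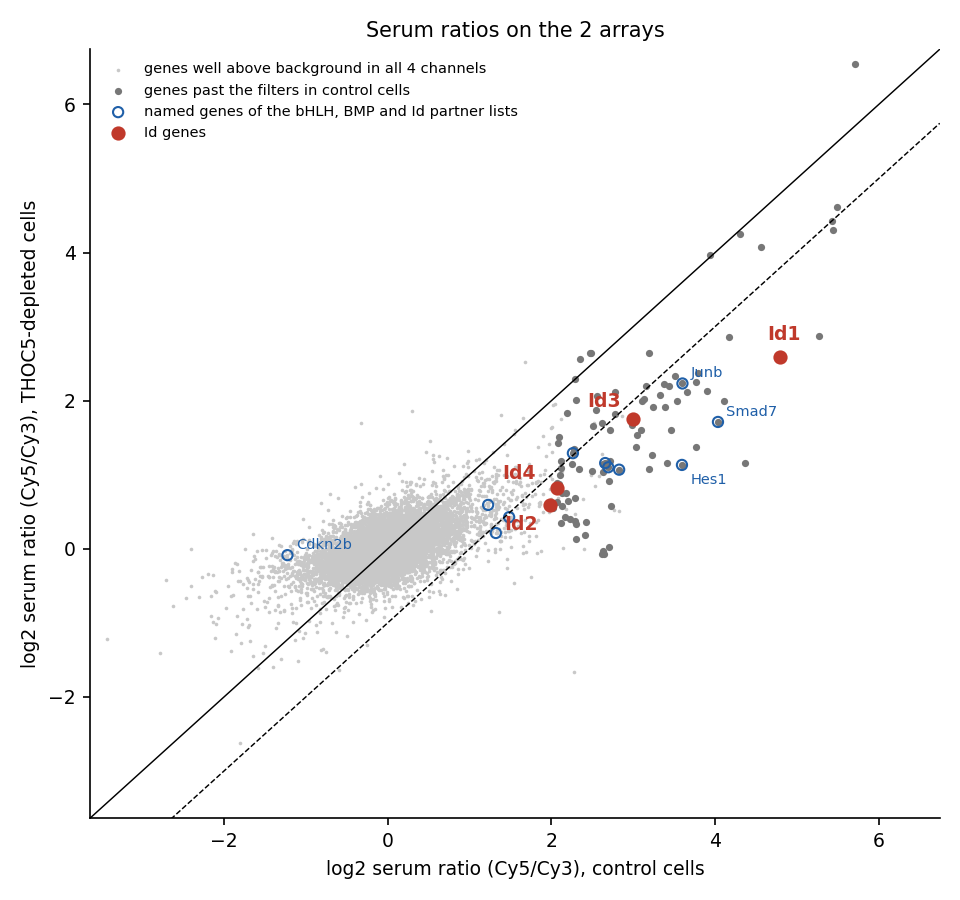
The log2 serum ratio of each gene in THOC5-depleted cells (y) is plotted against that in control cells (x), with equal ratios on the solid line and a fold reduction of 2 on the dashed line. Dark grey points are the genes past the filters in control cells, blue circles the named genes of the lists, and the 4 Id genes (red) lie below the dashed line, Id1 at 4.79 and 2.59, Id3 at 3.00 and 1.75, Id4 at 2.07 and 0.83, and Id2 at 1.98 and 0.59.

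**Figure D2:**
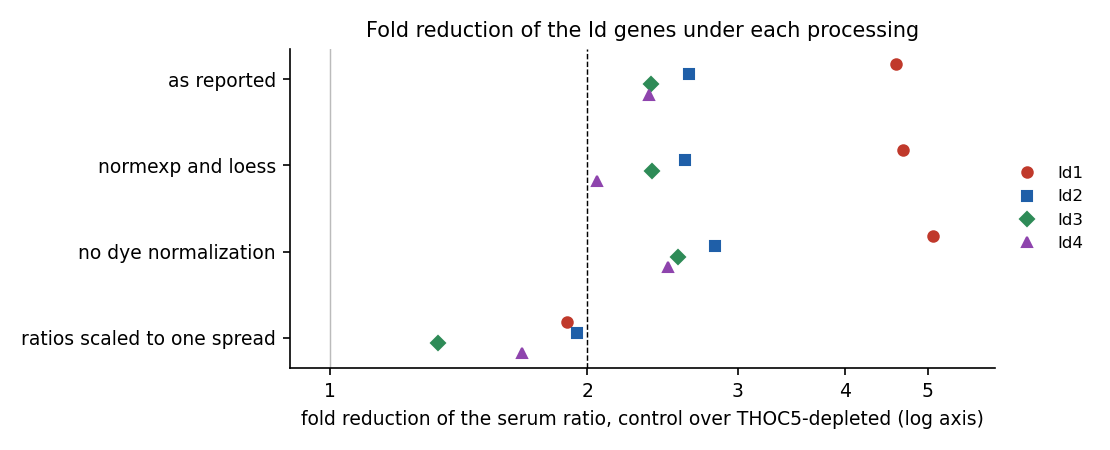
The fold reduction of the serum ratio (x, log axis) is shown for each Id gene under the reported processing and the 3 alternatives that gave other values (y), with a reduction of 2 on the dashed line. All 4 genes lie above 2 under normexp and loess and without dye normalization, but not in the last line, in which both arrays were given the same spread of log2 ratios and the genes lie between 1.34 and 1.95.

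The reduction of Id1 stood apart from the other 3, which were close to each other. It was 1.75 times that of Id2, 1.94 times that of Id3 and 1.95 times that of Id4, differences of 0.80 to 0.96 on the log2 scale whose SD from repeated spots was at most 0.074. With a common spread this order did not hold (Id2 1.95, Id1 1.90). Id2 and Id3 differed by 0.15 (SD 0.044) and Id2 and Id4 by 0.16 (SD 0.078). Id3 and Id4 differed by 0.0058, less than the SD of 0.074. Read as the part of the log2 serum ratio that was kept, the order was another one. Id3 kept 58.4% and Id1 54.1%, whereas Id4 kept 39.95% and Id2 29.6%. Thus Id1 lost the most as a factor, and Id2 kept the least of its own response.

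A smaller ratio can come from a lower signal after serum, from a higher signal before it, or from both, and the 4 genes differed in this. To compare the arrays, signals were scaled between them (limma's Aquantile). After scaling, Id1 had 2023 (unstimulated) and 56102 (stimulated) in control cells, and 4199 and 25334 in THOC5-depleted cells. Its unstimulated signal was thus 2.08-fold higher and its stimulated signal 2.21-fold lower without THOC5. Id2 had 524 and 2071 in control cells, and 1273 and 1912 in THOC5-depleted cells. Its unstimulated signal was 2.43-fold higher, whereas its stimulated signal was 1.08-fold lower. This last change, -0.12 on the log2 scale, lay within the interquartile range of all genes (-0.18 to 0.19). Id3 showed the reverse, with 1469.8 and 11734 in control cells against 1688 and 5681 in THOC5-depleted cells. Its stimulated signal was 2.07-fold lower, and its unstimulated signal was 1.15-fold higher (0.20 on the log2 scale, next to the upper quartile of 0.17), or -0.13 on the log2 scale without scaling between the arrays. Id4 had 93.9 and 393 in control cells, and 139 and 247 in THOC5-depleted cells. Neither channel of Id4 reached a factor of 2, being 1.48-fold higher before and 1.59-fold lower after serum.

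**Figure D3:**
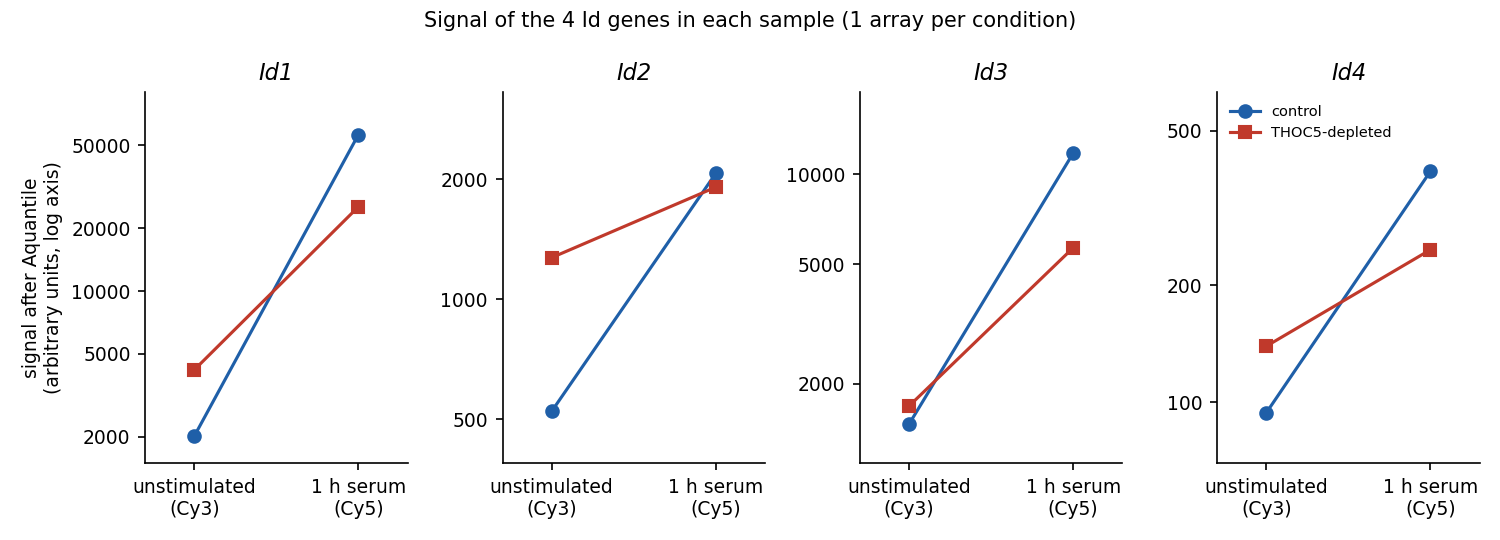
For each Id gene, the signal after Aquantile (log axis, arbitrary units, a separate scale per gene) is shown in unstimulated cells (Cy3) and after 1 h of serum (Cy5), for control (blue circles) and THOC5-depleted cells (red squares), 1 array each. The 2 lines of Id2 come close after serum (2071 and 1912) and start apart, while those of Id3 start together (1469.8 and 1688) and end apart.

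In shares of the log2 reduction, 91.7% of that of Id2 came from the unstimulated channel and 84.0% of that of Id3 from the stimulated channel. Id1 and Id4 were divided almost evenly, with 47.9% and 45.9% from the unstimulated channel. Without scaling between the arrays these shares were 33.2% (Id1), 70.5% (Id2) and 27.5% (Id4), and Id3 was lower in both channels. No Id gene was at least 2-fold lower in unstimulated THOC5-depleted cells (background 2.24%). Id1 and Id2 were at least 2-fold higher there (2 of 4, background 2.24%), and Id1 and Id3 were at least 2-fold lower in stimulated cells (2 of 4, background 2.27%), whereas none was at least 2-fold higher in stimulated cells (background 2.56%). The unstimulated changes of Id2 and Id1 were above those of 99.4% and 99.0% of the 17232 genes, and that of Id3 above 78.0%. The stimulated changes of Id1 and Id3 were above those of only 1.10% and 1.43% of genes. Between arrays no channel shares a hybridization, so these levels are less precise than the ratios. Without scaling, the median of all genes was -0.26 (log2) in both channels, Id2 was 0.98 and Id1 0.73 higher in unstimulated cells, and neither reached a factor of 2.

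The 93 genes past the filters in control cells (Id1, Id3 and Id4 among them) were set beside the 4 genes as a description. They entered by a high stimulated and a low unstimulated signal on the control array, a choice that by itself favours a lower ratio, a lower stimulated and a higher unstimulated signal on the other array. Their median serum ratio was 6.52 in control and 2.85 in THOC5-depleted cells, against 5.78 and 2.44 for the 4 Id genes. Their median fold reduction was 2.65 (from 0.559 to 9.20), and that of the Id genes was 2.50. The reduction of Id1 was above that of 87.1% of the 93 genes, and those of Id2, Id3 and Id4 were above 49.5%, 40.9% and 39.8%. After scaling between the arrays, the stimulated signal was lower in 85 of the 93 genes without THOC5 (91.4%) and the unstimulated signal was higher in 66 (71.0%). The median changes were -1.06 and 0.19 on the log2 scale, whereas those of the 4 Id genes were -0.86 and 0.81. Id3 lay close to both medians of the induced genes. Whether the Id genes differ from other induced genes in the unstimulated change was not tested.

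**Figure D4:**
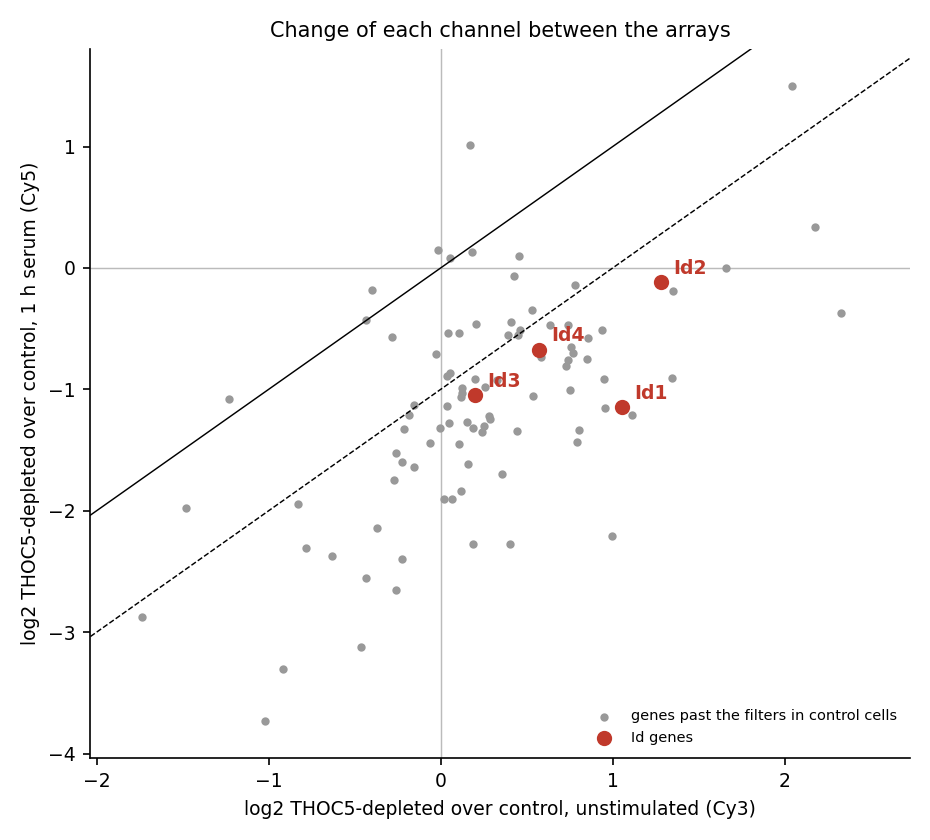
The log2 change between THOC5-depleted and control cells is shown for the unstimulated (x) and the stimulated channel (y), for the genes past the filters in control cells (grey) and the 4 Id genes (red), with no change of the serum ratio on the solid line and a fold reduction of 2 on the dashed line. Id3 lies at 0.20 and -1.05, among most induced genes, while Id2 lies far to the right at 1.28 and -0.12.

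The genes nearest to each Id gene in the plane of the 2 log2 serum ratios were named by distance alone. For Id1 they were Csf2 (a colony-stimulating factor, ratios 38.5 and 7.36), LOC402769 (18.0 and 7.23) and Errfi1 (an inhibitor of the EGF receptor, 17.3 and 3.9999), at distances of 0.55 to 0.91. Id1 thus had no close neighbour. For Id2 they were Serpinf2 (3.88 and 1.51), Klf9 (a Krüppel-like factor, 4.05 and 1.46) and Spry2 (an inhibitor of receptor tyrosine kinase signalling, 3.996 and 1.59), all within 0.081. For Id3 they were Ier3 (7.90 and 3.18), A530058O07Rik (7.25 and 3.47) and Areg (amphiregulin, an EGF receptor ligand, 8.55 and 3.03). For Id4 they were Vegfa (4.18 and 1.84), Maff (4.26 and 1.84) and Apobec1 (4.001 and 1.79), all within 0.067. The distances rest on 2 arrays and describe those only.

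The E proteins, which the Id proteins bind, were not called in either direction on either array (0 of 3, against 2.64% higher and 1.74% lower in control and 0.942% and 0.377% in THOC5-depleted cells), a count that is close to that of all genes. The ratio of Tcf3 was 0.839 with and 0.898 without THOC5, that of Tcf4 0.810 and 0.946, and that of Tcf12 0.948 and 1.12. Their fold reductions lay between 0.848 and 0.933, near the median of all genes (0.995). Each E protein had another, dimmer probe, and these gave 0.960 and 0.820 (Tcf3), 0.584 and 0.951 (Tcf4), and 0.972 and 0.783 (Tcf12). From control to THOC5-depleted cells the dimmer probes of Tcf3 and Tcf12 thus went the other way, and that of Tcf4 the same way.

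Of 30 tissue-specific bHLH factors, the other partners of E proteins, 12 were measured in control cells (at least 1 channel well above background), and 1 was called higher, against 2.64% of all genes. The called gene was Lyl1, a hematopoietic factor, with 60.2 and 141 before and after serum in control cells (a ratio of 2.34). In THOC5-depleted cells it had 44.3 and 66.8 (1.51). On that array 0 of 12 measured factors were called (background 0.942% higher and 0.377% lower), a count near that of all genes. Twist1 and Twist2, mesenchymal members that fibroblasts express, had ratios of 1.75 and 1.40 in control cells and 1.05 and 1.05 in THOC5-depleted cells. Among 12 bHLH repressors of the Hes, Hey and Bhlhe40 families, which repress through DNA binding, 8 were measured in control cells, with 2 called higher and 1 lower on each array (background 2.64% and 1.74% in control, 0.942% and 0.377% in THOC5-depleted cells). Hes1, a Notch target and serum-responsive gene, had 129 and 1553 in control cells (12.1) but 124 and 271 in THOC5-depleted cells (2.19). Bhlhe40, a repressor of the circadian and hypoxia pathways, had 1218 and 7880.0 (6.47), and 1413 and 3027 (2.14). The reductions of Hes1 and Bhlhe40 were 5.52 and 3.02. Of the 93 genes past the filters in control cells, 73.1% had a reduction above 2. For Hes1 nearly all of the reduction lay in the stimulated channel (-2.27 against 0.19 in the unstimulated channel, log2). The Cy5 signal of Hes5 was not well above background on either array, and its Cy3 signal was at least 17.2-fold (control cells) and at least 18.6-fold (THOC5-depleted cells) brighter.

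The pathway that is best known to drive Id genes, BMP signalling, was described from its ligands down to its targets. None of the 8 measured BMP ligands, 10 receptors and co-receptors and 4 Smads (Smad1, Smad4, Smad5 and Smad9) was called on the control array (background 2.64% higher and 1.74% lower). None was called on the THOC5-depleted array either, where 7 ligands were measured (background 0.942% and 0.377%), so the counts are near those of all genes. Between the arrays, 2 of 8 ligands measured in unstimulated cells were at least 2-fold lower without THOC5 (Bmp2 -1.21 and Bmp4 -1.02, log2), and 1 of 10 receptors was at least 2-fold higher (Bmpr1b 1.40), against 2.24% of all genes in each direction. Of the inhibitors, 4 of 17 were at least 2-fold higher there, and none was lower. In stimulated cells 2 of 17 inhibitors (Smad7 and Skil) and 1 of 6 ligands (Bmp2, -1.34) were at least 2-fold lower without THOC5 (background 2.27%), and 1 of 10 receptors (Acvr2b, 1.38) was at least 2-fold higher (background 2.56%). The median ratios of ligands, receptors and Smads in control cells were 1.05, 1.00 and 1.16. Of its inhibitors, 4 of 17 measured were called higher in control cells (background 2.64%) and 2 of 16 without THOC5 (background 0.942%). Smad7, which blocks the receptors and is itself a target of the pathway, had 393 and 6437 in control cells (16.4), and 672 and 2200.0 in THOC5-depleted cells (3.28). Its reduction was divided between the channels as that of Id1 was, with an unstimulated change of 1.11 and a stimulated change of -1.21 (log2). Skil, a corepressor of Smads, had ratios of 4.79 and 2.44.

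The secreted antagonist Fst (follistatin) had 215 and 599.5 in control cells (a ratio of 2.79), and 360.4 and 484 in THOC5-depleted cells (1.34). Like Id2, it had a higher unstimulated signal without THOC5 (1.01, log2) and a stimulated signal within the interquartile range of all genes (-0.05). Of 11 other BMP targets, Junb and Dlx2 were called higher on both arrays (background 2.64% and 0.942%). Junb, a subunit of AP-1, had 296 and 3592 in control cells (12.1), and 209 and 982 in THOC5-depleted cells (4.70). Dlx2, a homeobox gene, had ratios of 6.30 and 2.23. The other 9 targets, such as Msx1, Msx2 and Runx2, were measured and their serum ratios were not called on either array. Between the arrays, Runx2 was at least 2-fold higher without THOC5 in both channels (1.499 unstimulated and 1.02 stimulated, log2). That is 1 of 11 targets in each channel, against 2.24% and 2.56% of all genes. Runx2 had dim signals, 21.8 and 26.1 before and after serum with THOC5, and 55.4 and 47.8 without it. Junb and Dlx2 were at least 2-fold lower after serum (-1.60 and -1.22), 2 of 11 targets against 2.27% of all genes.

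Of 18 other genes reported as partners or targets of Id proteins, 2 were called higher and 1 lower in control cells (background 2.64% and 1.74%). Cdkn1a, the cell cycle inhibitor p21 and a gene that E proteins activate, had 252 and 1789 in control cells (7.09), and 350 and 733 in THOC5-depleted cells (2.10). Pax2, a paired-box factor bound by Id2, had dim signals (11.7 and 31.8, the first not well above background, and 16.9 and 37.6). Cdkn2b, the cell cycle inhibitor p15, had 17200 and 7348 in control cells, a ratio of 0.427, and 9355 and 8804 in THOC5-depleted cells, a ratio of 0.941. Over all lists, 11 of 89 measured genes were called higher in control cells (12.4%, against 2.64% of all genes) and 2 lower (2.25%, against 1.74%). In THOC5-depleted cells 8 of 86 were called higher (9.30%, against 0.942%) and 1 lower (1.16%, against 0.377%). The lists were chosen with earlier results of these data known, so these shares describe the lists only.

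As all 4 genes had a higher signal after serum and a smaller serum ratio without THOC5, the promoters were read as well, 250 bases before to 50 after the start of the gene in RefSeq (GRCm38.p6, 32851 windows). Id2, Id3 and Id4 were matched by symbol, and the promoter of Id1 was not analysed here. The windows had a GC content of 63.3% (Id2) and 73.3% (Id4), against a median of 52.7%, and that of Id3 lay between this median and Id2. Id2 and Id4, but not Id3, held the palindrome GGCGCC, the GC-rich element to which BMP-activated Smads are known to bind, which 11.9% of all windows held. It is capitalized in the 30 bases below, at chr12:25096306-25096335 (- strand) for Id2 and at chr13:48260956-48260985 (+ strand) for Id4.
Id2: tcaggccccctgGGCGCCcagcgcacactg
Id4: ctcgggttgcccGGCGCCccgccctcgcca
It starts 231 bases before the start of Id2 and 148 bases before that of Id4. The CCAAT box (CCAAT, either strand) was found 3 times in Id2, 2 times in Id4 and not in Id3 (37.4% of windows hold it). The GC box (GGGCGG, either strand) was found in all 3 windows (35.7%), 5 times in Id4, 2 times in Id3 and 1 time in Id2, and the Id3 matches overlap.
Id2: ggagcccttccaCCAATggcaattcaggga
Id3: aggcggtgcccaGGGCGGgcgggggtggac
These lines show the CCAAT box nearest to the start of Id2 (chr12:25096151-25096180, - strand, 76 bases before it) and the first GC box of Id3 (chr4:136143716-136143745, + strand, 94 bases before it). The EGR motif GCGTGGGCG (0.612% of windows) and the CArG box of serum response factor (1.63%), 2 elements known from immediate early genes, were not found in any of the 3 windows, nor was TATAAA (13.6%). Of the other motifs searched on both strands, the E-box CANNTG was found 1 time in Id2 (72.3% of windows), the Smad box GTCT in Id2 and Id3 (88.0%), and the cAMP response half-site TGACG in Id3 and Id4 (20.8%). Such a match is a description of the sequence, and binding was not measured here. The shares of windows were not matched for GC content, and all 3 Id windows were above the median. They therefore do not show whether a motif is enriched in the Id promoters.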

How the data were processed

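RNA of unstimulated (Cy3) and serum-stimulated cells (Cy5) was measured on 1 Agilent array for control and 1 for THOC5-depleted cells. The authors deposited the scanner output of Agilent Feature Extraction 10.7.3.1 (version per the submitters' processing notes). Probes are placed on mm9. The processed signals in these deposited files are, per the file headers, background-subtracted intensities with the dyes normalized within each array, and the arrays were not scaled to each other. The deposited LogRatio is the log10 of Cy5 over Cy3. A deposited table of the series holds log10 ratios too, but 0 of its values are negative although the scanner's LogRatio was negative for 18655 and 18600 features, so it lacks the sign and served only as an alternative, with the scanner's sign. In size, its values equalled those of the scanner for 85.1% (control) and 86.3% (THOC5-depleted) of features, and the others differed. The number of columns not mapped to a sample was 0.

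Here outlier spots were left out, log2 values of a probe's spots were averaged, and for genes with several probes the brightest was used. Of 35777 probes with a symbol, 26412 took their name from the reference annotation by accession. In place of the annotation filter of the methods, probes needed a gene symbol. A gene was called at a 2-fold serum ratio with the brighter channel well above background, and a dimmer channel below background gave a bound, computed against the lowest signal well above background (11.2 to 14.0). Signals were compared between arrays after Aquantile in limma 3.58.1 (R 4.3.3). Python 3.11.15, numpy 2.4.6, pandas 2.3.3 and matplotlib 3.10.9 were used, and the procedure was tested on simulated data. The number of arrays limits the precision, and SDs between repeated spots cover technical error only.

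The Id genes and the gene lists were chosen with earlier results of these data known. Named were the Id genes, Thoc5, the E proteins, up to 8 called genes of each list with the largest change and the 3 genes nearest to each Id gene by log2 serum ratios. Twist1, Twist2, Bmp2, Bmp4, Bmpr1b, Acvr2b, Msx1, Msx2 and Runx2 were named after their values were seen. The promoter sequences are from RefSeq. The alternatives concerned background correction, dye and between-array normalization, signal floors, probe choice and fold limits. Some results are not reported here. RT-PCR, chromatin immunoprecipitation and immunoblots were not analysed here.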

Additional observations from a re-analysis of the deposited data

Results flagged for a closer look

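The E protein gene Tcf12 had a serum ratio of 1.12 in THOC5-depleted cells, opposite in direction to its ratio of 0.948 in control cells. This difference was not tested, and the dimmer probe of the gene gave 0.783 and 0.972. With 1 array per condition, no group was large enough to look for a sample far from the others.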

How the results depend on the processing

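No paired analysis was possible because each condition had 1 array, and for the same reason no replicate could be left out. The count of Id genes with a fold reduction above 2, which is 4, was 0 once both arrays had the same spread of log2 ratios and 1 with a limit of 3. The count of Id genes past the filters in THOC5-depleted cells, which is 1, was 2 without dye normalization and 2 with a ratio above 2. The count past the filters in control cells stayed between 2 and 4 over 11 alternatives, 4 with a rounded ratio of 4 or more, which was added after seeing the data, and under normexp and loess the ratio of Id2 was 4.04 and that of Id4 3.35, so that neither passed. The 2 Id genes at least 2-fold higher in unstimulated THOC5-depleted cells became 0 with no scaling between the arrays and stayed 2 under the other 3 alternatives. These alternatives were listed for that count after the data were seen. The counts of 0 and 2 at least 2-fold lower in unstimulated and stimulated cells held under all 4. Of the genes of the lists, 13 (control) and 9 (THOC5-depleted) were called, and 8 and 3 at a limit of 3-fold. Without dye normalization, every serum ratio of an Id gene was higher (Id1 54.0 and 10.6 in control and THOC5-depleted cells, Id2 7.20 and 2.55, Id3 15.1 and 5.92, Id4 7.38 and 2.96), whereas the fold reductions moved less (5.08, 2.82, 2.55 and 2.49). No single value of an Id gene changed its side of no change when it was called at 2-fold, but the uncalled unstimulated change of Id3 (0.20, log2) was -0.13 without scaling. Under normexp, loess and Aquantile, the share of the reduction of Id4 from the unstimulated channel was 37.9%. Each Id gene had 1 probe, 1 spot per array and no outlier. All Id signals lay above the floor of 50, and the value table held the same Id ratios in size. The choice of probe, keeping outlier spots, the floor and the value table therefore returned the reported values (60 of them) and test nothing. Of the other recomputed values, 24 moved by less than the SD between repeated spots and 36 by more. The cause of these shifts was not tested. The depth limit is the signal of Id4, whose lowest value (102) lay above the lowest signal well above background in that channel, 11.2.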
